A study of Homo sapiens with 18 samples.

Results

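Single libraries of H1 human embryonic stem cells were compared here: wild type, clone 1-5, which the labels give as a heterozygous ZNF263 knockout, and clone 1-10, given as a homozygous knockout. They are 3 of the 18 RNA-seq libraries of the study and were taken by their columns in the read-count table that holds 1 library of each genotype. The knockouts were made with Cas9, and the comparison asks how the transcriptome of 1 heterozygous clone and 1 homozygous clone differed from that of unedited cells. Further sets served as independent libraries. The first held 3 wild-type and 3 clone 1-10 libraries of H1, called the replicated H1 set below. The second held 3 wild-type libraries of H9, another embryonic stem cell line, and 3 libraries each of its homozygous knockout clones 9-1 and 9-D. Clone 1-5 was sequenced once and has no replicate in the study. Each genotype rests on 1 clone in H1, so an effect of the deletion and a property of the clone cannot be told apart. Nothing in the labels says whether replicates came from separate cultures, and p-values from the replicated sets measure only the spread between those libraries. In the H9 tests and SDs, clones 9-1 and 9-D were pooled as 1 knockout group of 6 libraries. Libraries of the same clone thus stood as replicates there, and the spread between clones was not tested apart.

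ZNF263 is a zinc finger protein of the SCAN-domain family that binds purine-rich GC-rich DNA, often near the promoters of genes. Human embryonic stem cells keep the POU5F1, SOX2 and NANOG network active and depend on NODAL or activin signalling, which in turn switches on its own feedback inhibitors LEFTY1, LEFTY2 and CER1. Interferon-induced genes are the antiviral programme that cells switch on after sensing foreign RNA or interferon. Pluripotent cells are known to run this programme weakly.

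The single libraries held 11142701 counts for wild type, 13180520 for clone 1-5 and 13395335 for clone 1-10. Of 27130 genes in the table, 11997 had 50 or more counts in at least 1 of the 3 libraries and were kept. Levels are given in CPM, read counts scaled to a common library total, with TMM factors over all 9 H1 libraries. A count of 0 still allows 3 counts, which correspond to 0.269 CPM in wild type, 0.228 in clone 1-5 and 0.224 in clone 1-10. Folds between single libraries are ratios of scaled counts with a 95% counting interval in brackets (Clopper-Pearson), which covers counting error only. With 1 library a genotype there is no test of these folds, and they compare libraries, not conditions.

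The single libraries stood apart from the replicated set of the same genotypes. Between the single wild-type library and the 3 replicated wild-type libraries, 54 to 71 genes were at least 2-fold apart. Among the replicated wild-type libraries themselves that number was 9 to 16. The single clone 1-10 library was 40 to 75 genes from its 3 replicated counterparts, which differed among themselves by 7 to 20. Within the single set the numbers were 49 for wild type and clone 1-5, 47 for wild type and clone 1-10, and 55 for the clones. These numbers lay above those between replicates and near or below those between libraries of 1 genotype in different sets. Replicated wild-type and clone 1-10 libraries were 62 to 120 genes apart.

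**Figure D1:**
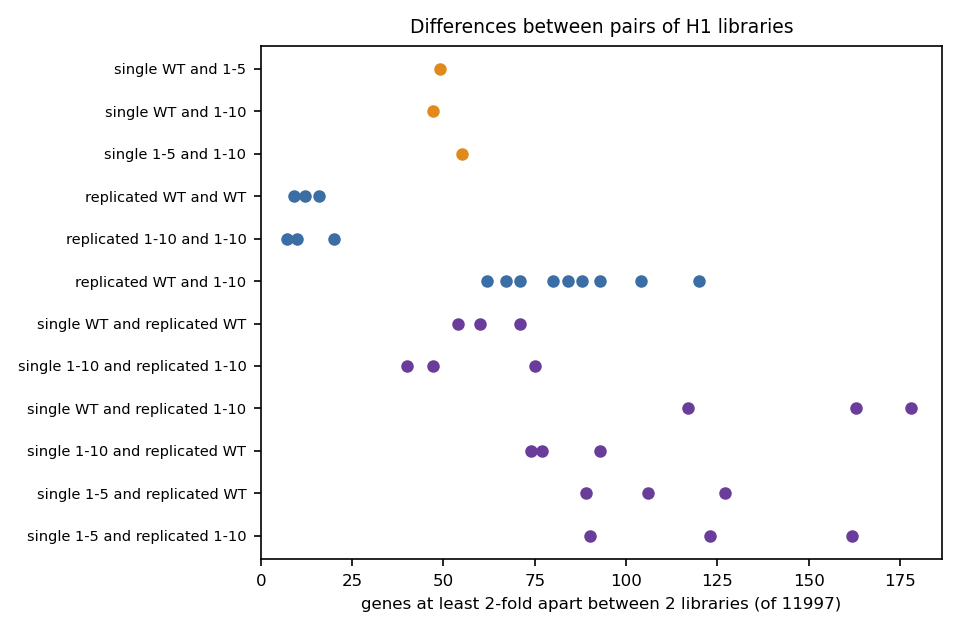
Genes at least 2-fold apart (x axis, number of the 11997 kept genes) between pairs of H1 libraries, 1 point a pair, grouped by set and genotype (y axis). The 3 single pairs lie at 47 to 55, above replicate pairs at 7 to 20 and beside the single against replicated wild-type pairs at 54 to 71.

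Marker levels were those of pluripotent cells in all 3 single libraries. The 8 fixed stem cell markers summed to 8640 CPM in wild type, 9130 in clone 1-5 and 9294 in clone 1-10. POU5F1, the central pluripotency factor, had 20950, 25189 and 25728 counts in that order, and its log2 ratios to wild type were 0.05 and 0.06. NANOG stood at 45.9, 47.0 and 57.5 CPM. SOX2, LIN28A and DNMT3B were likewise within 0.25 log2 units of wild type in both clones. The fibroblast markers summed to 211.5, 208 and 193 CPM, nearly all of it from the collagens, and the mesoderm markers to 169, 147 and 158 CPM, nearly all of it KDR, a receptor for VEGF. DCN and LUM of the fibroblast markers, HAND1 of the mesoderm markers and CGA of the trophoblast markers had 0 counts in all 3 libraries. Primitive streak markers (T, MIXL1 and EOMES) summed to 1.95, 3.27 and 2.86 CPM, against 16.9 to 18.0 in the replicated wild-type libraries. Neuroectoderm markers (PAX6, SOX1, LHX2, RAX and SIX3) summed to 11.17, 10.9 and 9.04 CPM, against 22.8 to 30.3 in those libraries and 6.45 to 8.72 in replicated clone 1-10. So the single wild-type library held less of both marker sets than any replicated wild-type library. In bulk RNA, fewer cells of a type and less RNA per cell cannot be told apart.

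ZNF263 itself was little lower in either clone. It had 443 counts in wild type, 416 in clone 1-5 and 443 in clone 1-10, which scaled to 39.3, 31.7 and 33.4 CPM. The log2 ratios were -0.31 for the heterozygous and -0.23 for the homozygous clone, so its RNA did not fall in the order of the genotypes. Replicated wild type held 39.6 to 41.8 CPM and replicated clone 1-10 32.5 to 36.1, without overlap (log2 fold change -0.27, SE 0.0756, edgeR with Benjamini-Hochberg adjusted p = 0.0156). That call was lost without clone 1-10 replicate 1 (edgeR adjusted p = 0.0971) or without wild-type replicate 2 (0.0545). A gene-level count does not show which bases were edited, so it neither supports nor contradicts the genotypes on the labels.

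Most genes lay close to wild type in both clones. Over the 11997 genes the median log2 ratio was 0.006 for clone 1-5 and 0.014 for clone 1-10, and 90% of the genes lay between -0.34 and 0.33 and between -0.37 and 0.29. Clone 1-5 had 37 genes at least 2-fold higher than wild type (0.308% of the genes kept) and 12 at least 2-fold lower (0.1%). Clone 1-10 had 8 genes higher (0.0667%) and 39 lower (0.325%). The split of clone 1-5 depended on the threshold and on the wild-type library: it was 147 higher and 143 lower at 1.5-fold, and 47 and 46 at 2-fold against the mean of the replicated wild-type libraries. Between the clones, 8 genes were at least 2-fold higher in 1-10 than in 1-5 (0.0667%) and 47 lower (0.392%). The authors' deposited tables for the 2 clones list adjusted p-values for 20272 genes each and call none at 0.05, with a lowest value of 0.9992 for clone 1-5 and 0.9993 for clone 1-10.

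Both clone ratios use the same wild-type library, so any peculiarity of that library enters both. Genes were therefore sorted by the shape of the response only as a description. Among the 47 genes at least 2-fold from wild type in clone 1-10, the log2 ratio of clone 1-5 was divided by that of clone 1-10. In all, 19 genes had a quotient of 0.25 to 0.75 and are called graded, 7 had one above 0.75 and are called alike, 10 lay within 0.25 of 0 and are called clone 1-10 only, and 11 had a quotient below -0.25 and are called opposite. A further 7 genes, at least 2-fold from wild type in clone 1-5 and near wild type in 1-10, are called clone 1-5 only. The graded class held 15 lower and 4 higher genes, the alike class 4 and 3, the clone 1-10 only class 9 and 1, and the opposite class 11 and 0.

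**Figure D2:**
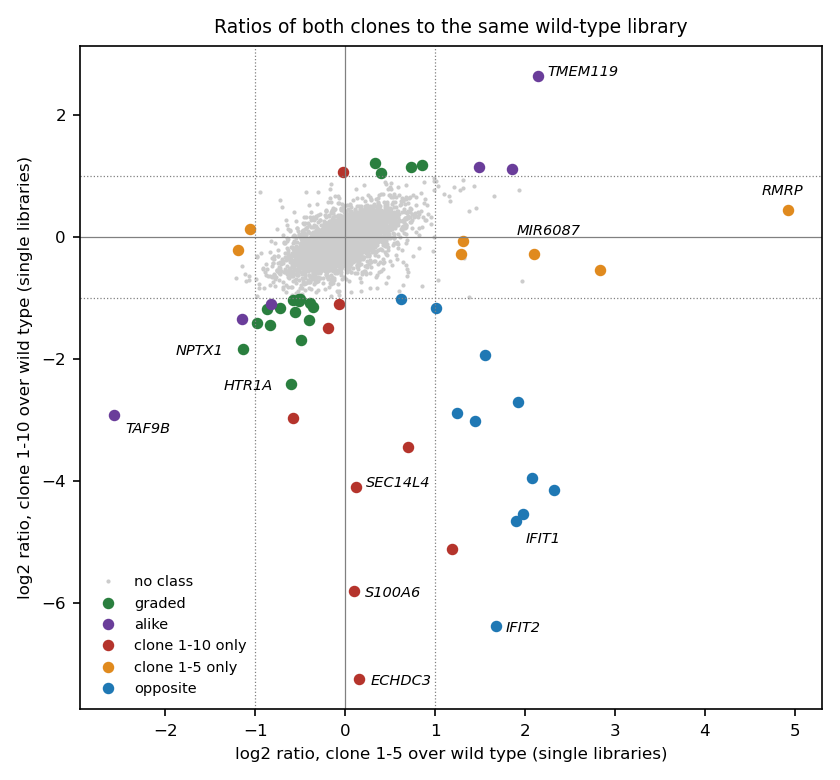
Log2 ratio of clone 1-5 to wild type (x axis) against that of clone 1-10 to the same wild-type library (y axis), 1 point a gene, coloured by class, with dotted lines at 2-fold. The 11 opposite genes lie at the lower right, with IFIT2 lowest, while TMEM119 and TAF9B lie far from 0 on both axes in the same direction.

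The genes that lay on opposite sides of wild type in the 2 clones were mainly interferon-induced. All 11 opposite genes were higher in clone 1-5 and lower in clone 1-10 than in the single wild-type library. Of these, 8 belong to the fixed interferon list: IFIT1, IFIT2, IFIT3, ISG15, IFI6, IFI44, IFIH1 and DDX58. The others were OASL, an oligoadenylate synthetase-like antiviral protein, CH25H, which makes the antiviral oxysterol 25-hydroxycholesterol, and KRT17, a keratin. Of the 29 interferon genes on the list, 25 had 50 or more counts. Of those 25, 8 were at least 2-fold higher in clone 1-5 and 9 at least 2-fold lower in clone 1-10, with list medians of 0.21 and -0.39 on the log2 scale. Over all genes kept these shares were 0.308% and 0.325%. IFI44, OAS2 and OASL reached 50 counts in clone 1-5 alone, so the filter favoured a higher level there.

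Promoters of 5 genes are printed as read from RefSeq on GRCh38.p14. They cover the 200 bases before the start of the gene, 5′ to 3′ on the strand of the gene, with motif matches in capitals. In the first 4, capitals mark the core of the interferon-stimulated response element, GAAA, any 2 bases and GAAA, or its reverse complement, TTTC, any 2 bases and TTTC, and overlapping matches are joined. In TAF9B, a gene lower in both clones, they mark TCCTCCC, the reverse complement of GGGAGGA, a run of the purine-rich ZNF263 motif. The IFIT3 and IFI6 stretches also hold this run on either strand, left unmarked.
IFIT1, chr10:89392423-89392622, plus strand: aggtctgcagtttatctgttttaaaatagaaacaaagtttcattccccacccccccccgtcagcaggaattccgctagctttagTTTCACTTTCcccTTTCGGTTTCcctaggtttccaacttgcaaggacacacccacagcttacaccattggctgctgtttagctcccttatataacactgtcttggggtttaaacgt
IFIT3, chr10:89327797-89327996, plus strand: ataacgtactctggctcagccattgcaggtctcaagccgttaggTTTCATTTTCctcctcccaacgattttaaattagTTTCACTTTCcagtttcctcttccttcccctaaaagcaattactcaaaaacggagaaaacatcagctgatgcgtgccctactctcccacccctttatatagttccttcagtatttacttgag
ISG15, chr1:1013297-1013496, plus strand: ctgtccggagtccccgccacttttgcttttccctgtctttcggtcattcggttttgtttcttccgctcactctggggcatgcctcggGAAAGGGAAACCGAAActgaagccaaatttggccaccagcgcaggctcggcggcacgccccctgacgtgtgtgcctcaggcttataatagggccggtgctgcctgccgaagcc
IFI6, chr1:27672193-27672392, minus strand: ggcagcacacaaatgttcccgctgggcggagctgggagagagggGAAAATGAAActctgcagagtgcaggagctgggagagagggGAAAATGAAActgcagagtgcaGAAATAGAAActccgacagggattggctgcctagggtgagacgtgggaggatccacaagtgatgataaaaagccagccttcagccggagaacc
TAF9B, chrX:78139651-78139850, minus strand: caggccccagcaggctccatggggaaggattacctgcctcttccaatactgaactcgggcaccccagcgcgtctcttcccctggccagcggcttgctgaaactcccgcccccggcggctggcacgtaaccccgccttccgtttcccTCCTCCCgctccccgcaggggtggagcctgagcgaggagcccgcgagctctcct
In the table's windows of 250 bases before to 50 after each start, the interferon element core was found on either strand in 1255 of 35116 (3.57%), and in 4.38% of the genes with a window. All 6 interferon genes at least 2-fold lower in clone 1-10 that had a window held a match, out of 9 such genes. By class, 6 of 7 opposite genes with a window held it, 1 of 11 graded genes (BST2), 0 of 5 clone 1-10 only genes, 0 of 2 alike genes and 1 of 3 clone 1-5 only genes. GGGAGGA was far more common, in 6360 windows (18.1%) and 21.1% of the genes, and was found in 3 of 11 graded, 1 of 2 alike, 1 of 5 clone 1-10 only, 1 of 3 clone 1-5 only and 2 of 7 opposite genes. A match describes these letters only and shows no binding.

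The IFIT proteins, which bind foreign RNA and block its translation, included IFIT1, the opposite gene with the highest level in clone 1-5. IFIT1 had 429 counts in wild type, 1864 in clone 1-5 and 19 in clone 1-10, or 38.0, 142 and 1.43 CPM. It was 3.74-fold higher in clone 1-5 [3.37 to 4.17] and 26.6-fold lower in clone 1-10 [16.8 to 44.6]. Replicated H1 libraries held IFIT1 at 1.27, 1.80 and 1.80 CPM in wild type and 1.21 to 1.68 in clone 1-10. The replicated groups overlapped, and the single clone 1-10 value lay among them, whereas the single wild-type value was above all 6 of them. IFIT2 had 286, 1067 and 3 counts (25.3, 81.2 and 0.226 CPM) and was 3.21-fold higher in clone 1-5 [2.82 to 3.67]. Its ratio of wild type to clone 1-10 was 112 [38.0 to 547]. The 6 replicated H1 libraries held 0.0796 to 0.386 CPM of IFIT2, again at the clone 1-10 level. IFIT3 had 118, 541 and 5 counts, 3.95-fold higher in clone 1-5 [3.23 to 4.86] and 27.8-fold lower in clone 1-10 [11.6 to 87.2].

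ISG15, a ubiquitin-like protein attached to other proteins during the antiviral response, had 319, 1092 and 98 counts. It stood at 28.3, 83.1 and 7.38 CPM in the single libraries, 8.78 to 9.25 in replicated wild type and 7.99 to 9.76 in replicated clone 1-10. HERC5, the ligase that attaches ISG15, had 520, 1233 and 376 counts and was 2.04-fold higher in clone 1-5 [1.84 to 2.27], with 46.1, 93.8 and 28.3 CPM. Replicated wild type held 23.3 to 28.1 CPM of HERC5 and replicated clone 1-10 29.3 to 32.8, so the single wild-type and clone 1-5 values were above both groups. Other effectors were not detected in clone 1-10. OASL had 15, 91 and 0 counts, 5.22-fold higher in clone 1-5 [3.01 to 9.72] and at least 5.89-fold lower in clone 1-10 against 3 counts. IFI44 had 13, 67 and 0 counts, 4.44-fold higher [2.43 to 8.77] and at least 5.10-fold lower. OAS2, a synthetase that activates RNase L, had 30, 81 and 0 counts. It was 2.33-fold higher in clone 1-5 [1.51 to 3.66] and at least 11.8-fold lower in clone 1-10. Its quotient of -0.23 put OAS2 just inside the clone 1-10 only class rather than the opposite class.

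The cytosolic RNA sensors followed the same order. IFIH1, which encodes the long double-stranded RNA sensor MDA5, had 93, 258 and 14 counts. It was 2.39-fold higher in clone 1-5 [1.88 to 3.06] and 7.82-fold lower in clone 1-10 [4.43 to 14.9]. DDX58, which encodes RIG-I, had 145, 260 and 84 counts, 1.54-fold higher [1.26 to 1.91] and 2.03-fold lower [1.54 to 2.69]. DDX60, a helicase that acts with RIG-I, had 31, 89 and 30 counts and differed from wild type in clone 1-5 only. MX1, a GTPase that restricts influenza virus, had 153, 270 and 97 counts, and both of its ratios stayed under 2-fold. CEACAM1, an adhesion molecule outside the list, had 23, 107 and 16 counts and was 4.01-fold higher in clone 1-5 [2.54 to 6.59].

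STAT2 and IRF7, transcription factors that drive the programme, stayed within 2-fold of wild type in both clones. STAT2 had 371, 385 and 349 counts, or 32.9, 29.3 and 26.3 CPM, where the 6 replicated libraries held 27.6 to 32.2 CPM. Its log2 ratios were -0.16 in clone 1-5 and -0.32 in clone 1-10. IRF7 had 89, 116 and 95 counts. The antigen presentation genes HLA-B, HLA-C, TAP1, PSMB8 and B2M lay between -0.18 and 0.09 on the log2 scale in clone 1-5 and between -0.62 and -0.21 in clone 1-10.

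**Figure D3:**
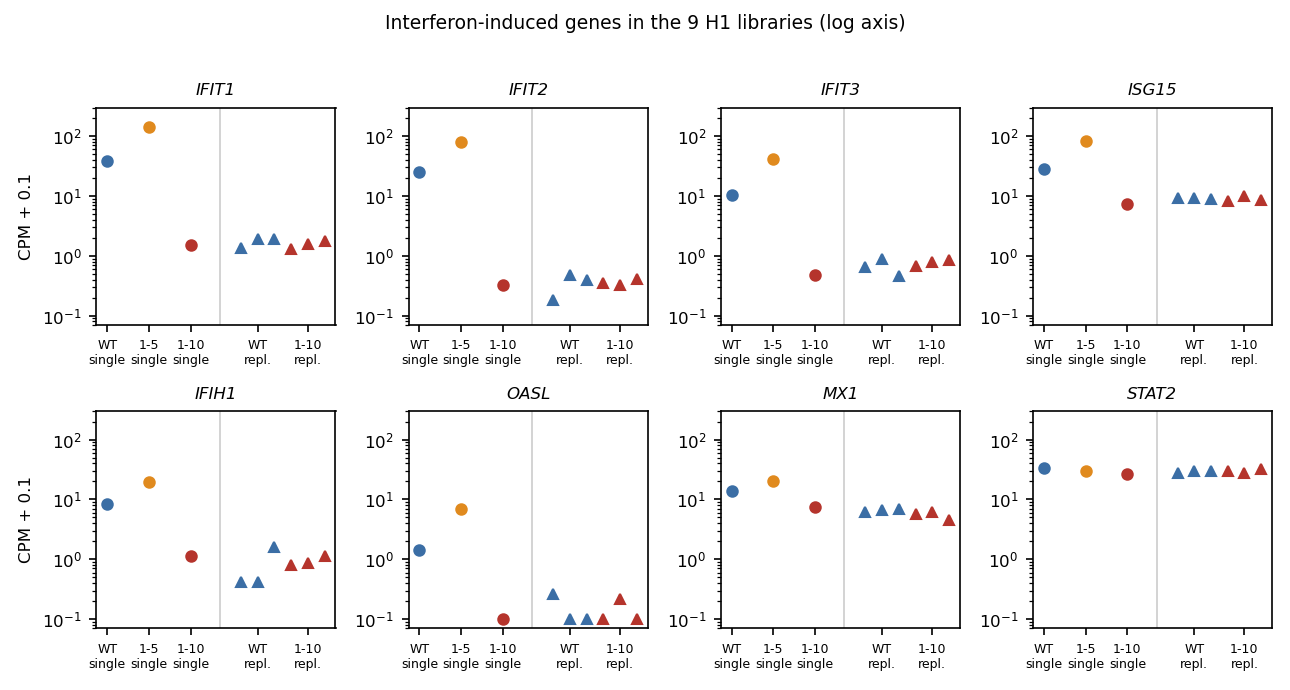
Levels of 8 genes (y axis, CPM plus 0.1 on a log scale) in the 9 H1 libraries: single (circles) and replicated (triangles), wild type in blue, clone 1-5 in orange and clone 1-10 in red. For IFIT1 the single wild-type and clone 1-5 libraries stand at 38.0 and 142 CPM while the other 7 lie at 1.21 to 1.80, and STAT2 lies within 26.3 to 32.9 CPM in all 9.

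For IFIT1, IFIT2, IFIT3 and ISG15 the high values thus sat in 2 of the 9 H1 libraries. DDX60 and CEACAM1 stood out in clone 1-5 alone. DDX60 read 2.75 CPM in single wild type and 6.77 in clone 1-5, against 1.36 to 2.72 in the replicated libraries. CEACAM1 read 2.04 and 8.14 CPM, against 0.629 to 1.67. The single wild-type library was at least 2-fold above all 3 replicated wild-type libraries for 18 genes (0.15%), IFIT1, IFIT2, IFIT3 and ISG15 among them. Of 22 list members tested in the replicated H1 set, 0 rose and 1 fell with edgeR (Benjamini-Hochberg adjusted p under 0.05), with a median log2 fold change of 0.004, where 5.01% of all genes tested rose and 7.25% fell. At an unadjusted p under 0.05 1 was higher and 3 were lower, and DESeq2 gave the same numbers on both counts. In H9, all genotypes held high levels. IFIT1 was at 362 ± 40.2 CPM in wild type (SD, n = 3) and 341 ± 30.1 in the knockouts (SD, n = 6), a log2 fold change of -0.09 (edgeR with Benjamini-Hochberg adjusted p = 0.29). Of the 28 list members tested in H9, 5 rose and 6 fell, where 14.4% of all genes rose and 15.3% fell. With the mean of the replicated wild-type libraries in place of the single one, IFIH1 was higher in clone 1-10 than in wild type (log2 ratio 0.51) and the number of opposite genes, counted anew, was 4. What set the levels of these genes in the single wild-type and clone 1-5 libraries was not tested.

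A pair of genes outside that group stood far from wild type in both clones and did so again in replicated clone 1-10. TMEM119, a membrane protein of bone-forming cells and microglia, had 11 counts in wild type, 60 in clone 1-5 and 87 in clone 1-10. It was 4.70-fold higher in clone 1-5 [2.45 to 9.91] and 6.72-fold higher in clone 1-10. Replicated wild type held 0.955, 0.964 and 0.432 CPM of TMEM119 and replicated clone 1-10 held 6.32, 6.35 and 6.29 CPM. The log2 fold change was 2.99 (SE 0.252, edgeR with Benjamini-Hochberg adjusted p = 1.98e-10). In H9 it rose by the same order, with a log2 fold change of 3.11 (SE 0.300, edgeR adjusted p = 1.23e-09). All 4 H1 wild-type libraries were below 1 CPM and all 5 knockout libraries of H1 above 4 CPM, with the heterozygous clone lowest among the knockouts.

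TAF9B, a TATA-binding-protein associated factor and close relative of TAF9, was the counterpart among lower genes. It had 76, 14 and 11 counts, or 6.74, 1.06 and 0.829 CPM, which made it 6.30-fold lower in clone 1-5 and 8.13-fold lower in clone 1-10 [4.30 to 17.0]. Replicated libraries held TAF9B at 7.52 to 9.29 CPM in wild type and 0.315 to 0.693 in clone 1-10 (log2 fold change -4.09, SE 0.255, edgeR with Benjamini-Hochberg adjusted p = 2.3e-13). In H9 it was at 33.2 ± 0.857 CPM in wild type (SD, n = 3) and 32.9 ± 2.76 in the knockouts (SD, n = 6), and no difference was called (log2 fold change -0.02, edgeR adjusted p = 0.858). The lower level was therefore seen in all 5 knockout libraries of H1 and in neither H9 clone. Its promoter held 1 match to GGGAGGA, on the opposite strand, ending 48 bases before the start. Such a match was found in 21.1% of all genes with a promoter window, so it does not set TAF9B apart.

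Other alike genes differed less. DGAT2, which makes triglycerides, had 66, 34 and 30 counts, and ZNF862 had 57, 37 and 31. Neither was called in the replicated H1 set (edgeR adjusted p = 0.587 and 0.136). In H9 both fell, with log2 fold changes of -0.79 and -0.75 (edgeR with Benjamini-Hochberg adjusted p = 0.00051 and 0.0015). The small nucleolar RNA SNORD47 had 16, 54 and 43 counts.

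In the graded class the heterozygous clone lay between wild type and the homozygous clone. NPTX1, a synaptic pentraxin made early in neural induction, had the most counts of the class, 417, 219 and 137. It was 2.21-fold lower in clone 1-5 and 3.58-fold lower in clone 1-10 [2.95 to 4.38]. In CPM the single libraries read 37.0, 16.7 and 10.3, replicated wild type 19.3, 18.5 and 37.6, and replicated clone 1-10 6.64, 8.43 and 7.97. The clone 1-5 value thus lay under every wild-type library and above every clone 1-10 library, but close to the lowest wild type. NPTX1 fell in the replicated H1 set (log2 fold change -1.72, SE 0.181, edgeR with Benjamini-Hochberg adjusted p = 2.34e-08) and in H9 (-1.21, SE 0.127, edgeR adjusted p = 7.67e-09).

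Other graded genes were also lower in both clones. HTR1A, a serotonin receptor, had 62, 47 and 13 counts, and GREB1L, a gene needed for kidney and inner ear development, 95, 83 and 43. Both were among the strongest of the class in the replicated H1 set, with log2 fold changes of -2.96 for HTR1A (edgeR with Benjamini-Hochberg adjusted p = 1.27e-08) and -2.54 for GREB1L (9.4e-11). BST2, the interferon-induced membrane protein tetherin, had 233, 189 and 136 counts and fell in both replicated sets, by 1.52 on the log2 scale in H1 and by 1.24 in H9. LHX5, a forebrain homeobox gene, had 52, 36 and 27 counts and fell by 1.82 in replicated H1. SCN4B, a sodium channel subunit, had 110, 89 and 62 and fell by 0.87 there and by 2.29 in H9. For GREB1L, HTR1A and BST2 the counting intervals of clone 1-5 over wild type were 0.554 to 1.02, 0.437 to 0.969 and 0.574 to 0.850. The middle position of GREB1L was thus within counting error of wild type. The same held for the graded genes DNAJA4 [0.938 to 1.71], ANGPT1 [0.911 to 1.95], DAZL, ALOX12P2, C2orf81 and NCK1-AS1. For DRD4, RUBCNL, TMEM26, ENPP2, LHX5 and CRYGD, clone 1-5 was within counting error of clone 1-10. For these genes, graded could not be told from alike or clone 1-10 only.

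Of the 15 lower graded genes, 6 fell in the replicated H1 set, where 7.25% of the 14897 genes tested fell. Of the 4 higher graded genes, 2 rose, where 5.01% of the genes rose. DNAJA4, a heat shock cochaperone, had 77, 113 and 213 counts and rose by a log2 fold change of 1.05 in the replicated H1 set (edgeR with Benjamini-Hochberg adjusted p = 1.24e-07). ENPP2, the enzyme autotaxin, had 39, 76 and 104 counts and rose by 0.78 (edgeR adjusted p = 0.000489). ANGPT1, a ligand of the endothelial TIE2 receptor, had 48, 74 and 119 counts and was not called in H1 (log2 fold change 0.23, edgeR adjusted p = 0.34), while in H9 it rose by 1.42. CRYGD, a lens crystallin, had 23, 49 and 63 counts and was not called in H1 (edgeR adjusted p = 0.79). The 9 lower graded genes not called in replicated H1 were DRD4, DAZL, TMEM26, RUBCNL, C2orf81, MROH6, ALOX12P2, NCK1-AS1 and LOC155060.

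**Figure D4:**
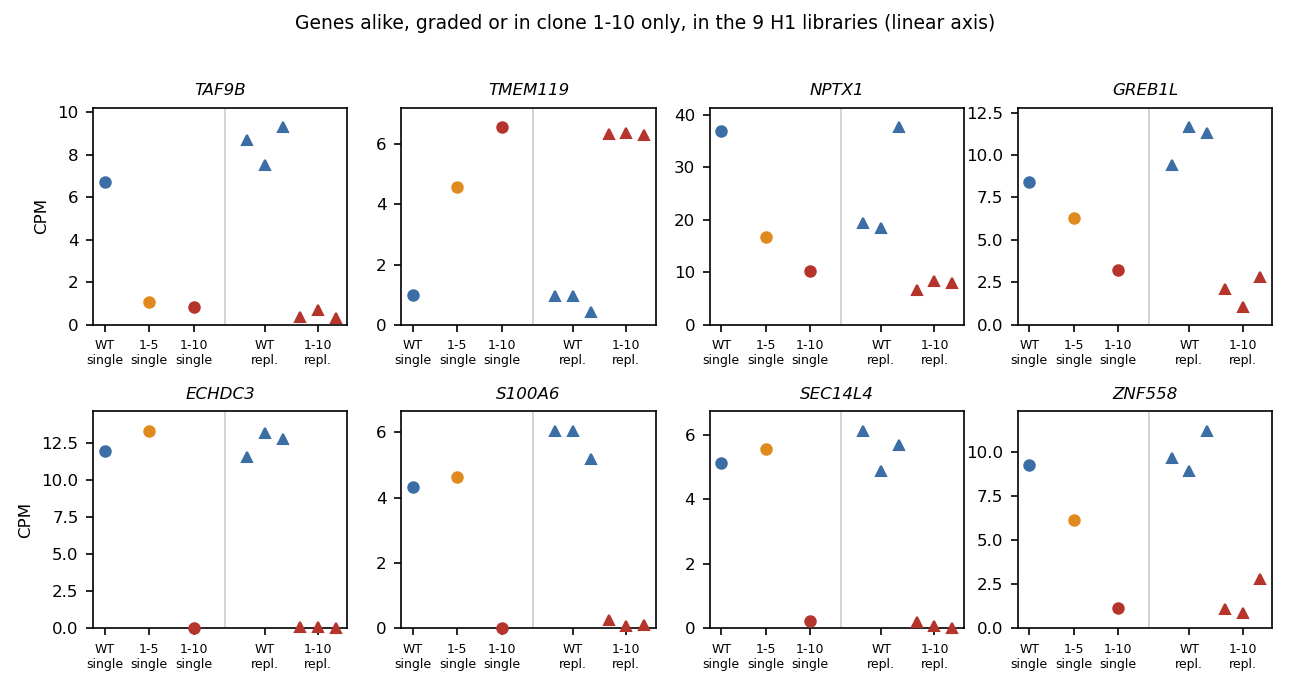
Levels of 8 genes from the alike, graded and clone 1-10 only classes (y axis, CPM, linear) in the 9 H1 libraries, with circles for single and triangles for replicated libraries and wild type in blue, clone 1-5 in orange and clone 1-10 in red. TAF9B and TMEM119 separate clone 1-5 from wild type, while ECHDC3, S100A6 and SEC14L4 are near 0 only in the 4 clone 1-10 libraries.

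The clone 1-10 only class was led by genes nearly silent in the homozygous clone, beside smaller differences. ECHDC3, a mitochondrial protein of the enoyl-CoA hydratase family, had 135 counts in wild type, 175 in clone 1-5 and 0 in clone 1-10, at least 53-fold lower. Replicated wild type held 11.5 to 13.2 CPM of ECHDC3 and replicated clone 1-10 0.0639, 0.116 and 0 CPM (log2 fold change -7.31, edgeR with Benjamini-Hochberg adjusted p = 2.01e-17). S100A6, the calcium-binding protein calcyclin, had 49, 61 and 0 counts, at least 19.2-fold lower. SEC14L4, a lipid-binding protein, had 58, 73 and 3 counts and a wild type to clone 1-10 ratio of 22.8 [7.41 to 114]. NAP1L6 had 55, 104 and 5 counts and ZNF558, a KRAB zinc finger gene, 105, 81 and 15. For all 5 genes the 4 clone 1-10 libraries lay under the 4 wild-type libraries without overlap.

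All 8 lower genes of that class that could be tested fell in the replicated H1 set. These were ECHDC3, S100A6 (log2 fold change -5.27), SEC14L4 (-5.76), NAP1L6 (-4.21), ZNF558 (-2.82), MIR4454 (-1.46), IQCA1 (-0.53) and 1 gene not named here. The replicated set is of the same clone, so it repeats the library and not the editing. In H9, where other clones were used, S100A6 fell by 3.22 and ZNF558 by 0.43 on the log2 scale, SEC14L4 rose by 3.11 (edgeR with Benjamini-Hochberg adjusted p = 1.19e-09), and MIR4454 and IQCA1 were not called (edgeR adjusted p = 0.165 and 0.858). ECHDC3 and NAP1L6 were too low in H9 to be tested. The one higher gene of the class, ZNF624, had 21, 24 and 53 counts and was not called in replicated H1 (edgeR adjusted p = 0.489).

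Of the 37 genes at least 2-fold above wild type in the heterozygous clone, 5 were near wild type in clone 1-10, as were 2 of the 12 lower genes. Among these 7 clone 1-5 only genes, KLF4, a Krüppel-like factor of naive pluripotency, had 49, 143 and 55 counts and was 2.51-fold higher [1.80 to 3.55]. At 10.9 CPM in clone 1-5 it was above all 8 other H1 libraries, which held 1.67 to 4.34 CPM. DPEP3, a dipeptidase, had 80, 40 and 81 counts, and FAM109B 96, 53 and 124, both lower in clone 1-5 alone. DPEP3 fell in the replicated H1 set (log2 fold change -0.66, edgeR with Benjamini-Hochberg adjusted p = 0.00139) and rose in H9 by 3.46, as did FAM109B by 2.91.

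RMRP, RPPH1 and MIR6087, also clone 1-5 only, are short non-coding RNAs that carry no standard poly(A) tail or are annotated microRNAs. RMRP, the RNA of the RNase MRP complex, had 1, 66 and 2 counts, a ratio of 56.8 [9.85 to 2279]. RPPH1, the RNA of RNase P, had 9, 81 and 7 counts, and MIR6087 916, 4574 and 896. The same entries were high in replicated wild-type library 2, at 391 CPM of MIR6087 against 102 and 79.0 in the others, and at 2.63 CPM of RMRP against 0.318 and 0.360. Replicated clone 1-10 held 75.2, 93.3 and 214 CPM of MIR6087. These RNAs thus varied several-fold among libraries of 1 genotype.

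The NODAL ligand and its feedback inhibitors were higher in clone 1-5 than in the single wild-type library, while most other genes of the pathway were near it. NODAL, the ligand, had 94 counts in wild type, 235 in clone 1-5 and 181 in clone 1-10, 2.15-fold higher in clone 1-5 [1.69 to 2.77]. Its secreted inhibitors followed it: LEFTY1 had 75, 237 and 160 counts, LEFTY2 73, 171 and 165, and CER1 25, 72 and 51. FGF8, a growth factor of the primitive streak, had 22, 83 and 42 counts. Of 23 pathway genes with 50 or more counts, 5 were at least 2-fold higher in clone 1-5 and 1 in clone 1-10. Over all genes kept these shares were 0.308% and 0.0667%. The list medians were 0.20 and 0.014 on the log2 scale. CER1 reached 50 counts only in the clones, so the filter favoured a higher level there. The co-receptor TDGF1, the receptors TGFBR1, ACVR1B and ACVR2B, and SMAD2 and SMAD4 lay within 0.20 of 0 in both clones. These ligand and inhibitor genes are targets of the pathway, whereas the receptors and SMADs transmit it.

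The single wild-type library was the lowest wild-type library for NODAL, LEFTY1 and CER1. In CPM NODAL read 8.33, 17.9 and 13.6 in the single libraries, 10.2 to 13.1 in replicated wild type and 13.5 to 17.3 in replicated clone 1-10. The single wild-type library was therefore the lowest of the 9, and clone 1-5 the highest. LEFTY1 read 6.65, 18.0 and 12.1 CPM against 7.63 to 9.70 and 8.50 to 8.94, again lowest in wild type and highest in clone 1-5. CER1 read 2.21, 5.48 and 3.84 CPM against 5.72 to 8.20 in replicated wild type, so clone 1-5 was below those libraries and its log2 ratio turned to -0.28 against their mean. In the replicated H1 set NODAL rose (log2 fold change 0.42, edgeR with Benjamini-Hochberg adjusted p = 0.0182) and LEFTY2 rose (0.52, 0.0151), while LEFTY1 was not called (-0.03, 0.909). The NODAL and LEFTY2 calls were lost with DESeq2 (adjusted p = 0.0621 for both), without clone 1-10 replicate 1 (edgeR adjusted p = 0.154 and 0.126) and without wild-type replicate 3 (0.119 and 0.134), and that of NODAL without wild-type replicate 2 (0.0506). In H9, NODAL rose by a log2 fold change of 1.45 (edgeR with Benjamini-Hochberg adjusted p = 1.82e-09). LEFTY1 rose there by 0.97 (edgeR adjusted p = 1.46e-09) and LEFTY2 by 0.76 (3.7e-06). CER1 was not called in H9 (0.45, edgeR adjusted p = 0.218).

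Other genes high in clone 1-5 were higher in the replicated clone 1-10 libraries too. ACTA1, skeletal muscle actin, had 131, 396 and 209 counts and rose in replicated H1 by a log2 fold change of 0.86 (edgeR with Benjamini-Hochberg adjusted p = 3.68e-05). CAV1, the caveolar coat protein, had 90, 235 and 161 counts and rose by 0.50 (edgeR adjusted p = 0.0131), and LHX4, a homeobox gene, had 65, 176 and 136 and rose by 0.83 (8.69e-05). Of the 37 higher genes of clone 1-5, 29 could be tested in the replicated H1 set, and 8 rose and 1 fell, where 5.01% of all genes tested rose. Leaving out clone 1-10 replicate 1, or using DESeq2, 4 rose. Of the 12 lower genes, 5 fell, where 7.25% of all genes tested fell.

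For several genes that separate the genotypes in the replicated set, the single wild-type library was low and lay within 2-fold of both clones. DLK1, an imprinted inhibitor of NOTCH signalling, stood at 6.91, 5.94 and 6.78 CPM in the single libraries, against 19.5 to 28.7 in replicated wild type and 3.26 to 5.67 in replicated clone 1-10. PRTG, a receptor of the early neural epithelium, read 26.2, 17.5 and 17.6 CPM against 71.3 to 86.3 and 15.8 to 28.0, and its log2 ratio to the single wild-type library was -0.58 in both clones. CDH6 read 4.34, 4.26 and 4.90 CPM and SULF1 6.29, 6.09 and 6.63, where replicated wild type held 14.7 to 19.8 of CDH6 and 13.6 to 15.9 of SULF1. In the replicated H1 set DLK1 fell by a log2 fold change of 2.60 (edgeR with Benjamini-Hochberg adjusted p = 8.92e-14) and PRTG by 1.92 (2.82e-14). In all, 11 genes were at least 2-fold below every replicated wild-type library in the single one (0.0917%), these 4 and CER1 among them. Their levels moved with the lower primitive streak and neuroectoderm markers of that library, and the part of those in the result was not tested.

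**Figure D5:**
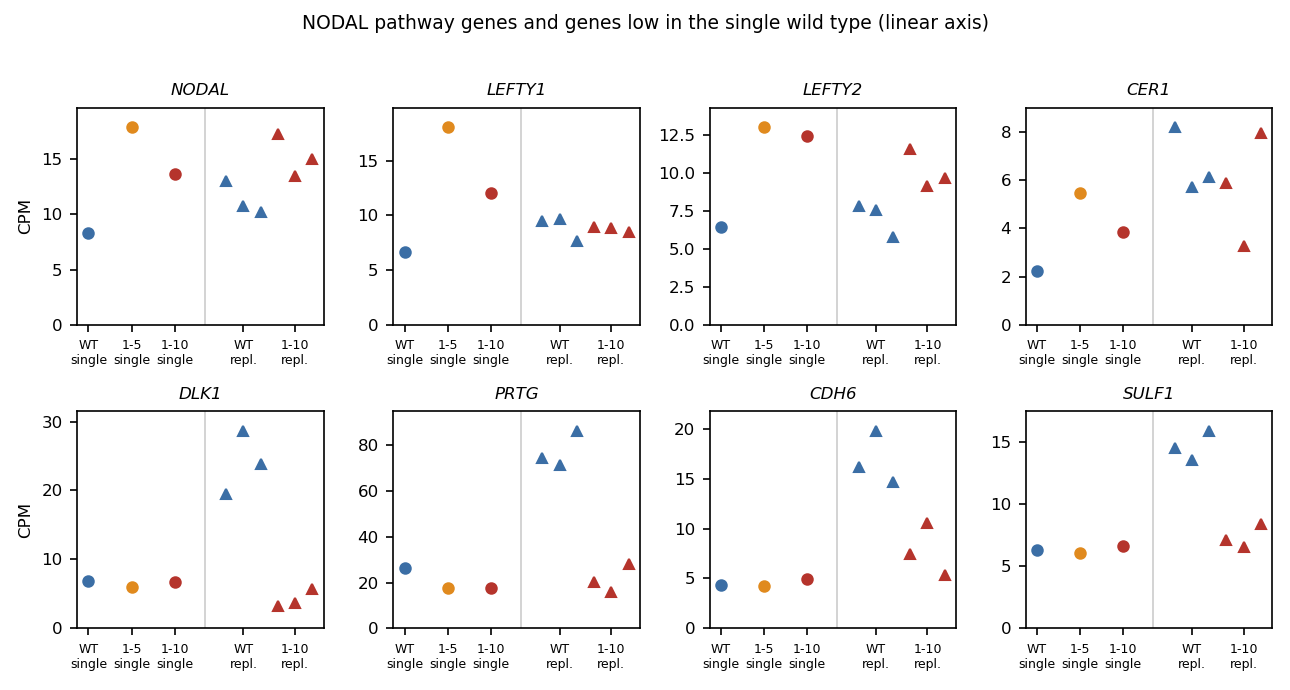
Levels of 4 NODAL pathway genes and 4 genes low in the single wild-type library (y axis, CPM, linear) in the 9 H1 libraries, with circles for single and triangles for replicated libraries and wild type in blue, clone 1-5 in orange and clone 1-10 in red. The single wild-type library (blue circle) is the lowest of the 9 for NODAL, LEFTY1 and CER1, and for DLK1, PRTG, CDH6 and SULF1 it lies under all 3 replicated wild-type libraries.

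Read against all 4 H1 wild-type libraries rather than 1, fewer genes stood out. Clone 1-5 was at least 2-fold beyond every one of them for 20 higher genes (0.167%) and 3 lower genes (0.025%), the latter being TAF9B, DPEP3 and PAMR1. Clone 1-10 was beyond them for 1 higher gene (0.00834%), TMEM119, and for 12 lower genes (0.1%). Of the 12, 10 were ECHDC3, S100A6, SEC14L4, NAP1L6, ZNF558, MIR4454, GREB1L, HTR1A, ALOX12P2 and TAF9B. This reading was chosen after seeing the data.

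Between the clones, 11 of the genes at least 2-fold lower in 1-10 than in 1-5 were opposite genes, 8 were clone 1-10 only, 5 were clone 1-5 only, 2 were graded, 20 were in no class, and 1 is not named here. IFIT1 was 99.5-fold lower and ISG15 11.3-fold lower in clone 1-10 than in clone 1-5. The 20 lower genes in no class included DHX58, a regulator of the RNA sensors with 33, 70 and 22 counts, and HERC6, a relative of HERC5, with 47, 88 and 40. The 8 higher ones were NR1I2, CYTL1, CXCL5, HLA-DQB1, FAM109B, ZNF624, SLITRK1 and GFRA2. NR1I2, a xenobiotic receptor, had 29, 17 and 58 counts and was 3.37-fold higher in clone 1-10 than in clone 1-5 [1.93 to 6.16].

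The clone 1-10 single library could also be read from the replicated side. Of 184 genes at least 2-fold lower in replicated clone 1-10 by edgeR, 44 had 50 or more counts here, and 39 of the 44 were below wild type in the single clone 1-10 library, 12 of them at least 2-fold, with a median log2 ratio of -0.67. Their median in the replicated set was -1.38. In clone 1-5 35 of the 44 were below wild type, 3 at least 2-fold, with a median of -0.28. Over all genes kept the medians were 0.014 in clone 1-10 and 0.006 in clone 1-5. Of 21 genes at least 2-fold higher there, 6 had 50 or more counts, all 6 above wild type in single clone 1-10 (median 0.72) and 5 in clone 1-5 (median 0.20). The clone 1-5 medians were nearer 0 than those of clone 1-10, and both share the single wild-type library. A gene could pass the minimum of 50 counts through a single library where it was high. That filter itself favours these directions in clone 1-10, so the numbers are a description.

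Most of the other gene lists lay close to wild type in both clones. The 30 measured heparan sulfate synthesis genes had medians of -0.03 and -0.01 on the log2 scale, the 21 Polycomb and DNA methylation genes 0.01 and 0.04, the 22 cell cycle genes -0.04 and -0.01, the 17 p53 response genes -0.05 and -0.05, and the 22 cholesterol synthesis genes 0.06 and 0.11. None of these 5 lists held a gene at least 2-fold from wild type in either clone. The 42 ribosomal protein genes had medians of 0.10 and 0.07, with 36 and 34 members above 0. The 24 core pluripotency genes had medians of 0.08 and 0.07, and the only members at least 2-fold away were NODAL, LEFTY1 and LEFTY2 in clone 1-5. The 36 SCAN-domain zinc finger genes, the family of ZNF263, had medians of -0.05 and -0.002. No chromosome stood out: chromosome medians ran from -0.044 to 0.045 in clone 1-5 and from -0.008 to 0.040 in clone 1-10.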

How the data were processed

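Poly(A) RNA libraries were aligned with STAR to hg19 and counted per gene with featureCounts, per the submitters' processing notes, which give no versions. The deposited tables hold raw read counts per gene symbol for all 18 libraries, 9663550 to 21007799 counts each. The authors also deposited DESeq2 log2 fold changes and adjusted p-values for each single clone. Whether counting used strand is not given in the sources used here.

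Ratios between single libraries were computed from counts scaled by TMM over the 3 libraries, with a pseudocount of 1 count on the log2 scale and an exact 95% counting interval (Clopper-Pearson, scipy 1.17.1). Printed folds carry no pseudocount. The replicated sets were tested separately with edgeR 4.0.16 in R 4.3.3 (quasi-likelihood F test, filterByExpr, Benjamini-Hochberg, threshold 0.05), over 14897 genes in H1 and 15411 in H9, and the fits were tested on simulated data. DESeq2 1.42.0 was an alternative, beside other scalings, filters, pseudocounts, thresholds and libraries left out. The main test did not pair libraries by replicate number, and whether the numbers pair them was not settled. Deviations of same-numbered H1 libraries correlated at 0.0444, 0.123 and 0.0432, not all over 0.1. Those of differently numbered ones lay between -0.107 and 0.0592. A replicate block in the H1 fit gave 1473 higher and 1453 lower genes.

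Members and gene lists were chosen with earlier results of these data known. Genes named by rule were ZNF263, 5 pluripotency genes, the 6 highest and 6 lowest of each ratio and the 5 of each class and direction by the nearer bound of the counting interval, and up to 4 per list. Other names (such as HERC5, CEACAM1, ACTA1, CAV1, LHX4, DLK1, PRTG, CDH6, SULF1, NR1I2 and the sensors and transcription factors) were chosen after their values were seen. Y-linked genes and XIST, 13 entries, entered counts and are not named, 2 of them in the classes. Some other genes named by the rule are not reported here. Promoter windows come from RefSeq (GRCh38.p14).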

Additional observations from a re-analysis of the deposited data

Results flagged for a closer look

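The 11 genes at least 2-fold apart between clone 1-10 and wild type whose clone 1-5 ratio went the opposite way were picked out because the 2 clones moved to different sides of the same wild-type library. The difference between the clones was not tested, since each clone has 1 library. Of the 11, 8 are on the interferon-induced list, and without that list 3 remained. All 11 were lower in clone 1-10, and 0 of the 5 that could be tested fell or rose in the replicated H1 libraries with edgeR, also 0 at an unadjusted p under 0.05, and 0 of the 4 with an adjusted p from DESeq2. Of all genes tested there with edgeR, 5.01% rose and 7.25% fell, and 0 of 5 is near those shares. The rest of the 11, such as IFIT2, were too low in the replicated H1 libraries to be tested.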

How the results depend on the processing

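Counts below are given as higher and lower genes. DESeq2 size factors and library totals kept the 6 counts and the 5 classes of the single libraries within 1.5 times, as did a counting interval that leaves out 1 for the 6 counts, the classes not being run with it. A minimum of 100 counts gave 19 and 3 for clone 1-5 over wild type, 3 and 18 for clone 1-10 over wild type, 2 and 26 for clone 1-10 over 1-5, and 6 graded, 1 alike, 6 clone 1-10 only and 3 clone 1-5 only genes. With no filter these were 855 and 1552, 736 and 1710, 641 and 964, and 545 graded, 1107 alike, 592 clone 1-10 only, 202 opposite and 545 clone 1-5 only genes, by construction mostly genes of few counts. A 1.5-fold threshold gave 147 and 143, 78 and 192, 77 and 147, and 106, 86, 45, 33 and 40 in the same order. A pseudocount of 5 left 5 genes higher in clone 1-10 than in 1-5. With the replicated wild-type mean in place of the single library, clone 1-5 had 46 lower genes, clone 1-10 60, and 23 alike, 4 opposite and 22 clone 1-5 only genes resulted. CER1 in clone 1-5 then turned to -0.28, and IFIH1 and OAS2 in clone 1-10 to 0.51 and 0.0. With the replicated clone 1-10 mean in place, 22 genes were higher and 96 lower than wild type, and 16 and 83 against clone 1-5. Added after seeing the data, genes beyond all 4 wild-type libraries numbered 20 and 3 for clone 1-5 and 1 and 12 for clone 1-10, and 3 genes stayed opposite without the interferon list. In the replicated H1 test, 747 genes rose and 1080 fell. DESeq2 gave 641 lower genes, and 4 of the higher genes of clone 1-5 called alike. The replicate block gave 1473 higher genes, and no count of carried calls moved by over 1.5 times with it. Leaving out 1 library gave 284 to 903 higher and 665 to 1197 lower genes, lowest without wild-type replicate 3. It gave 4 to 9 of the higher genes of clone 1-5 called alike, lowest without clone 1-10 replicate 1. Among single genes tested in the replicated sets, 28 lost and 20 gained a call in H1 under some alternative, and 21 and 17 in H9. The cause of each was not tested. Depth limits what can be read for genes near 3 counts.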
